A study of Mus musculus with 12 samples.

Results

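The 10 genes described here make, or are receptors for, prostaglandins: *Ptgs1*, *Ptgs2*, *Ptges*, *Ptgis*, *Ptgds*, *Ptgdr*, *Ptger2*, *Ptger3*, *Ptger4* and *Ptgfr*. They were taken by gene name from the table of raw read counts of an RNA-seq series on cultured mouse astrocytes, which lists 18903 genes. The set was chosen by a reading of earlier results of the same libraries, so the differences of its members between genotypes are given as values, with no p. Counts of members that pass the call rule used for all genes are descriptions and support nothing. All 10 were in the table, and all 10 passed the filter on low counts that left 17938 genes. *Ptgdr* passed through the groups in which it was high.

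The series compared 6 groups of 2 libraries each, made from primary astrocytes of C57BL/6 mice taken at postnatal day 1 (P1), 6 (P6) or 8 (P8). The groups labelled Rack7-cKO came from mice with the Cre transgene hGFAP-Cre and floxed alleles (Rack7 fl/fl) of *Zmynd8*, the gene that encodes the chromatin reader RACK7. The WT groups carried hGFAP-Cre with Rack7 +/+, so Cre was present in all 12 libraries. Per the study's methods, this driver acts in neural stem cells that give rise to neurons and glia, the meninges were stripped from the brains, and shaking of the flasks served to detach microglia and oligodendrocytes. The comparison addresses what loss of RACK7 does to astrocyte gene expression as the pups age. Library totals ran from 54413504 to 89183250 counts. *Zmynd8* stood at 100 to 136 counts per 1000000 (CPM) in the WT libraries and at 160 to 242 CPM in the libraries labelled Rack7-cKO. It was thus higher in the latter at each age, and a count over the whole gene does not check the deleted part, so genotypes are used here as labelled.

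Prostaglandins are short-range lipid signals made from arachidonic acid that phospholipases free from membranes. The cyclooxygenases *Ptgs1* (the constitutive form) and *Ptgs2* (the inducible form) turn arachidonic acid into a common precursor, and terminal synthases turn that into prostaglandin E (*Ptges*), prostacyclin (*Ptgis*) or prostaglandin D (*Ptgds*). The products act on G protein-coupled receptors and are then taken up and broken down. In brain, *Ptgds* is a known product of meningeal and choroid plexus cells, and prostaglandin receptors are found on glia, neurons and vessels.

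The upstream sequences of 3 members are printed because the results turn on them: the pair of cyclooxygenase genes, which differed in opposite directions at P1 and P6, and *Ptgdr*, the receptor with the widest range. Each run is the 250 bases before the RefSeq start (GRCm38.p6), 5′ to 3′ on the gene's own strand, with CpG pairs in capitals. *Ptgs1* lies on the plus strand (chr2:36230176-36230425), *Ptgs2* on the plus strand (chr1:150099781-150100030) and *Ptgdr* on the minus strand (chr14:44859376-44859625).
Ptgs1: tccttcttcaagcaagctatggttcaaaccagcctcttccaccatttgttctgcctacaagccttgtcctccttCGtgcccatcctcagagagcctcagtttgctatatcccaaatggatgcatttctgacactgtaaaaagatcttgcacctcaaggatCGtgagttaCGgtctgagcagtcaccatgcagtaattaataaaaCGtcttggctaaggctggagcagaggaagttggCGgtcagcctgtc
Ptgs2: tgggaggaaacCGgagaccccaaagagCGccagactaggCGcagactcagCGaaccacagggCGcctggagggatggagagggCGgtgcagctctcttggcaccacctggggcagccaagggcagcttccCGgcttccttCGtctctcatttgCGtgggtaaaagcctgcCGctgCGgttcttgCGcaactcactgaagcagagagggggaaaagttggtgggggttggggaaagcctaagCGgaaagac
Ptgdr: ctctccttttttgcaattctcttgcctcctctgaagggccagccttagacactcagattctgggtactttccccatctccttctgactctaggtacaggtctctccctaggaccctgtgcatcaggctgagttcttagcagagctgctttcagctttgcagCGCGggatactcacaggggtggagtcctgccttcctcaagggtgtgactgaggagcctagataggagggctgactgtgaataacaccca

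The 3 stretches differ in CpG content, with 5 pairs before *Ptgs1*, 13 before *Ptgs2* and 2 before *Ptgdr*. A start window of 300 bases (250 before and 50 after the start) was found for 9 of the 10 members, and the one not found was *Ptgis*. Over 32851 such windows of the RefSeq table the median was 7 CpG pairs. *Ptger3* (27), *Ptger4* (25), *Ptgs2* (16), *Ptgfr* (11) and *Ptges* (10) were above that median. *Ptgs1* (6), *Ptgdr* (3), *Ptger2* (3) and *Ptgds* (2) were below it. The full cAMP response element TGACGTCA, searched on both strands, was in none of the 9 windows and in 1.79% of all windows. The E-box CACGTG was in that of *Ptgs2* alone, after the start, and in 7.15% of all windows. The AP-1 motif TGACTCA was in that of *Ptgds* alone, and in 5.20% of all windows. The windows of *Ptgs1* and *Ptgdr* held none of these motifs.

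Before the members, the makeup of the cultures was examined with marker lists, since markers of other cells moved with the genotype. Of 14 meningeal and arachnoid markers, 12 were in the table, and their summed level was 511 to 522 CPM in WT and 2540 to 2579 CPM in Rack7-cKO libraries at P1. The order turned by P6, with 6865 to 6932 CPM in WT and 2599 to 2772 CPM in Rack7-cKO, and for P8 the sums were 26502 to 26607 CPM against 8208 to 8455 CPM. With edgeR and a call at adjusted p under 0.05 and a fold change of at least 1.5, 9 of the 12 rose at P1, and 10 of the 12 fell at P6 and again at P8. The sum at P8 was mostly that of *Col1a1*, *Col1a2* and *Col3a1* (9912, 9168 and 4915 CPM in WT replicate 1). The defining markers *Col1a1*, *Dcn*, *Foxc1* and *Aldh1a2* were detected in each group, and *Slc6a13* was not analysed here. Unlike the 10 that fell at P8, *Aldh1a2* was higher in Rack7-cKO there, at 22.6 and 22.4 CPM against 15.6 and 15.5 CPM in WT. All 9 microglial markers were detected, at 3013 to 3113 CPM in WT and 2449 to 2514 CPM in Rack7-cKO at P1, 2157 to 2245 against 2550 to 2587 CPM at P6, and 2157 to 2237 against 4258 to 4304 CPM at P8, where 6 rose and 1 fell. All 11 astrocyte markers were detected too, at 1938 to 2590 CPM in WT and 986 to 2483 CPM in Rack7-cKO, with the lowest sums in Rack7-cKO at P8, where 5 fell. The other lists summed to at most 267 CPM (oligodendrocyte lineage, 9 of 12 markers), 161 CPM (endothelial, 4 of 8), 257 CPM (ependymal and choroid plexus, 6 of 9) and 403 CPM (neuron, 4 of 10) in any library, while mural markers (5 of 8) summed to 1761 to 2943 CPM. Of the mural sum, *Acta2* alone held 1581 to 2767 CPM. The defining mural markers *Pdgfrb*, *Rgs5* and *Myh11* were at most 221, 6.66 and 20.7 CPM in any library. Of the 4 endothelial markers, 2 rose at P1, 3 fell at P6, and 2 fell and 1 rose at P8. These cultures are mixed samples, in which fewer cells of a type and less RNA per cell cannot be told apart.

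**Figure D1:**
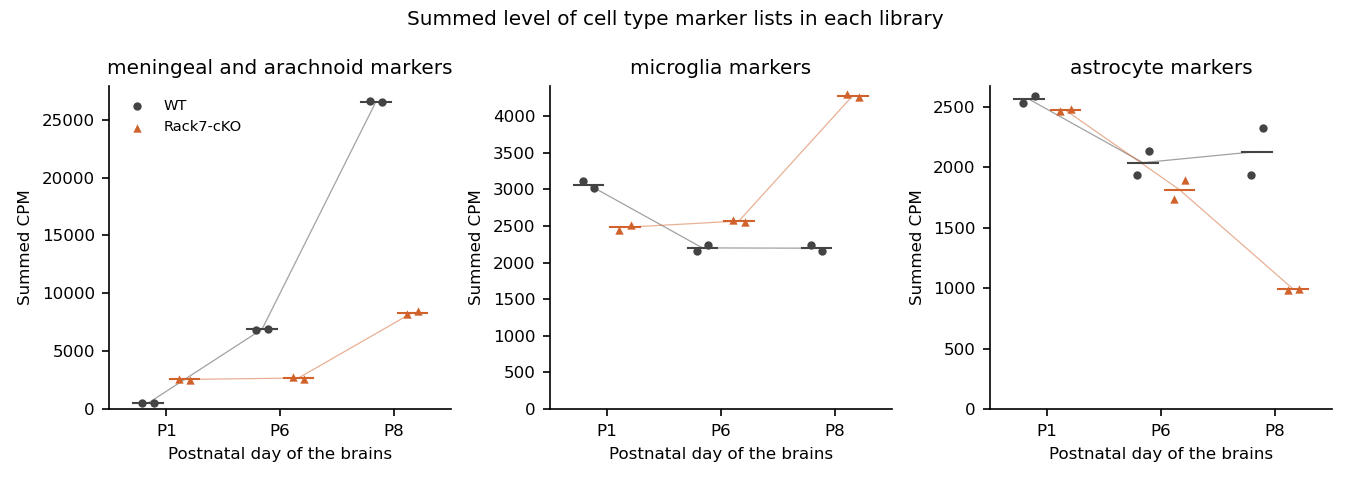
Summed CPM (linear axes from 0) of the meningeal and arachnoid, microglial and astrocyte marker lists in each library, by postnatal day; circles are WT, triangles Rack7-cKO, bars the mean of 2 libraries. Meningeal and arachnoid markers are higher in Rack7-cKO at P1 and lower at P6 and P8, and microglial markers are highest in Rack7-cKO at P8.

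The members differed between genotypes in ways that changed with age. At P1, 4 members were called higher (*Ptgdr*, *Ptges*, *Ptgis*, *Ptgs2*) and 1 lower (*Ptger4*), where 4.01% of all genes tested were called higher and 0.892% lower. At P6, 1 was higher (*Ptgs1*) and 5 lower (*Ptgdr*, *Ptger2*, *Ptges*, *Ptgis*, *Ptgs2*), against 7.16% and 6.38% of all genes. At P8, 2 were higher (*Ptger4*, *Ptgs2*) and 3 lower (*Ptgdr*, *Ptges*, *Ptgfr*), against 11.2% and 8.37%. Since the members were selected on these comparisons, nothing is read from their counts against those shares. The count at P1 rests on single libraries: *Ptgs2* and *Ptgis* remained higher without any 1 library, but without either WT P1 library or Rack7-cKO P1 replicate 1 they were the 2 left of the 4, *Ptges* was also lost without Rack7-cKO P1 replicate 2, and *Ptger4* was lost without Rack7-cKO P1 replicate 1, leaving 0 lower. In a fit of the P8 libraries alone, *Ptger3* and *Ptgis* joined those lower at P8, which made 5. The libraries of the 2 genotypes did not overlap for 8 members at P1, 6 at P6 and 8 at P8, while this held for 51.2%, 59.0% and 70.8% of all genes tested. Over the 10 members the median log2 fold change was 0.65 at P1 (all genes 0), −0.58 at P6 (all genes 0) and −0.57 at P8 (all genes 0.01).

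**Figure D2:**
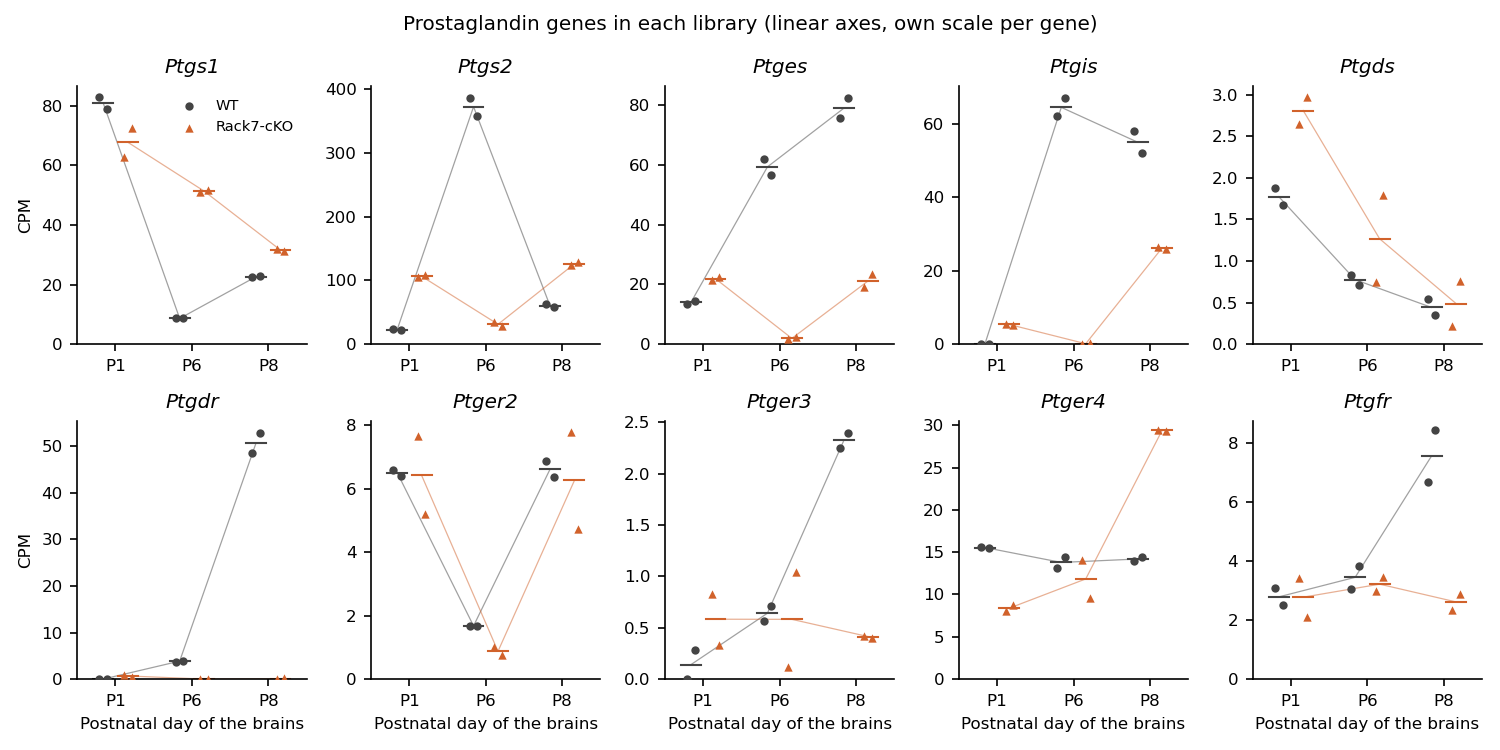
CPM of the 10 prostaglandin genes in each library (linear axes from 0, one scale per gene) by postnatal day; circles are WT, triangles Rack7-cKO, bars the mean of 2 libraries, and thin lines join the means. *Ptgs2* peaks in WT at P6, *Ptgdr* in WT at P8, and *Ptger4* in Rack7-cKO at P8.

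*Ptgs2*, the inducible cyclooxygenase, had the widest range of CPM among the synthesis genes, while *Ptgis* and *Ptges* had wider ranges of fold change. At P1 it stood at 23.4 and 22.2 CPM in WT and at 105 and 108 CPM in Rack7-cKO. At P6 the WT libraries held 387 and 358 CPM and the Rack7-cKO libraries 34.4 and 28.2 CPM. At P8 the levels were 63.4 and 57.7 CPM in WT and 124 and 128 CPM in Rack7-cKO. The genotypes were thus apart at each age, with Rack7-cKO above WT at P1 and P8 and below it at P6. The log2 fold changes were 2.23 (SE 0.10) at P1, −3.57 (SE 0.10) at P6 and 1.06 (SE 0.09) at P8. Ordered by level, the 6 groups did not overlap, from WT at P1 through Rack7-cKO at P6, WT at P8, Rack7-cKO at P1 and Rack7-cKO at P8 to WT at P6. At P1 and P6 *Ptgs2* had the genotypes in the same order as the meningeal and arachnoid sum, and at P8 in the opposite order. That sum was highest in WT at P8 and *Ptgs2* in WT at P6, and the part of the list in the level of *Ptgs2* was not tested.

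*Ptgs1*, the constitutive cyclooxygenase, ran the other way at P6. Its WT libraries held 82.9 and 78.8 CPM at P1, 8.65 and 8.64 CPM at P6 and 22.6 and 22.8 CPM at P8. In Rack7-cKO the levels were 62.9 and 72.6 CPM at P1, 51.0 and 51.7 CPM at P6 and 31.8 and 31.4 CPM at P8. The genotypes did not overlap at any age, with WT the higher at P1 and Rack7-cKO the higher at P6 and P8. On the log2 scale the fold change was −0.25 (SE 0.07) at P1, 2.57 (SE 0.08) at P6 and 0.48 (SE 0.07) at P8, and of these that at P6 reached a fold change of 1.5. *Ptgs1* is known as a microglial as well as a platelet gene, and the microglial marker sums given above differed between genotypes by less at P6 than at P8. Their part in the level of *Ptgs1* was not tested.

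Per kilobase of exon, the scale on which genes can be compared, the balance of the cyclooxygenases turned over. In WT at P1, *Ptgs1* made up 80.7% of the summed CPM per kb of both genes in each library. The share was 2.57% and 2.77% in WT at P6 and 29.6% and 31.8% in WT at P8. Rack7-cKO libraries held 41.4% and 44.2% at P1 and, at P6, 63.6% and 68.4%, while at P8 they held 23.2% and 22.4%. *Ptgs1* was therefore the larger of the pair in WT at P1 and in Rack7-cKO at P6, and *Ptgs2* in the other 4 groups. In levels, *Ptgs2* ran from 4.97 CPM per kb in WT at P1 to 81.3 CPM per kb in WT at P6, and *Ptgs1* from 2.23 CPM per kb in WT at P6 to 20.8 CPM per kb in WT at P1.

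**Figure D3:**
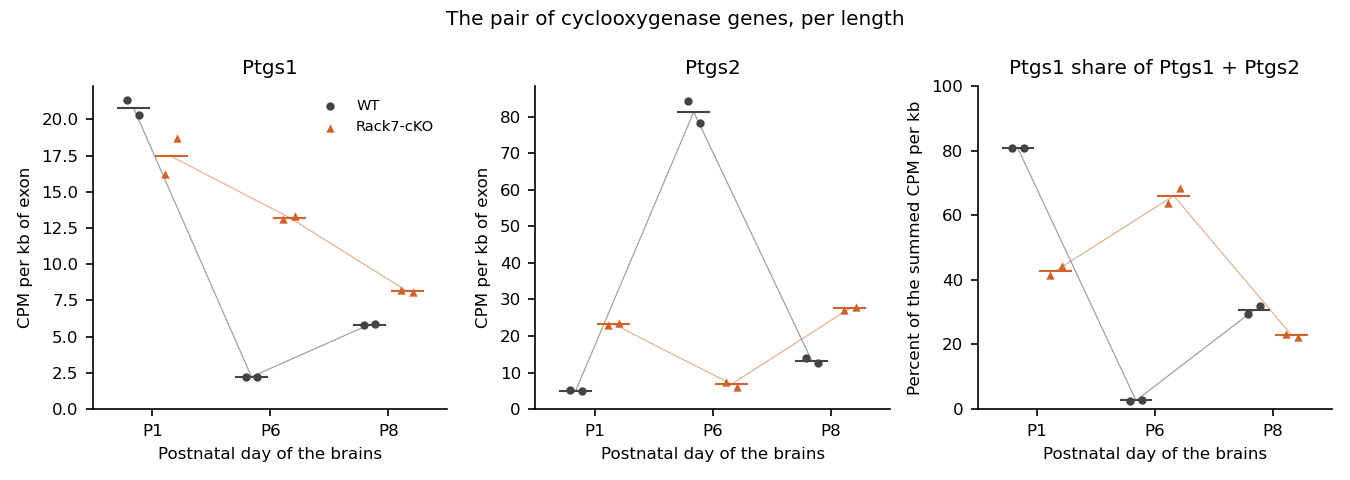
*Ptgs1* and *Ptgs2* in CPM per kb of exon (linear axes from 0) and the percent of their sum that was *Ptgs1*, in each library by postnatal day; circles are WT, triangles Rack7-cKO, bars the mean of 2 libraries. The *Ptgs1* share goes from 80.7% in WT at P1 to under 3% in WT at P6, and it is above 60% in Rack7-cKO at P6.

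Among the terminal synthases, *Ptges*, the inducible prostaglandin E synthase, was low in Rack7-cKO at both later ages. It stood at 13.5 and 14.6 CPM in WT and 21.4 and 22.5 CPM in Rack7-cKO at P1. By P6 the WT libraries held 61.9 and 56.7 CPM and the Rack7-cKO libraries 1.63 and 2.29 CPM. At P8 the values were 75.6 and 82.3 CPM in WT and 19.1 and 23.4 CPM in Rack7-cKO. The genotypes did not overlap at any age, and the log2 fold change went from 0.64 (SE 0.14) at P1 to −4.92 (SE 0.17) at P6 and −1.89 (SE 0.15) at P8. WT levels were higher at each later age, whereas the Rack7-cKO libraries at P8 overlapped those at P1.

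*Ptgis*, which makes prostacyclin, was near 0 in WT at P1, with 0 and 8 counts, or 0 and 0.0983 CPM. Rack7-cKO libraries held 5.56 and 5.20 CPM at that age. At P6 the order was reversed, with 62.0 and 67.0 CPM in WT and 0 and 0.280 CPM (0 and 18 counts) in Rack7-cKO. At P8 the WT libraries held 58.1 and 51.9 CPM and the Rack7-cKO libraries 26.6 and 25.9 CPM. The genotypes were apart at each age, and the log2 fold changes were 6.54 (SE 0.71), −8.84 (SE 0.64) and −1.07 (SE 0.40) at P1, P6 and P8, the first 2 resting on a group with at most 18 counts in a library. The 2 lowest groups, WT at P1 and Rack7-cKO at P6, overlapped.

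*Ptgds*, the lipocalin-type prostaglandin D synthase that is abundant in leptomeninges in vivo, was scarce in all cultures. Its level was 1.88 and 1.67 CPM in WT and 2.65 and 2.97 CPM in Rack7-cKO at P1, 0.836 and 0.715 against 0.746 and 1.79 CPM at P6, and 0.538 and 0.346 against 0.218 and 0.761 CPM at P8. The genotypes overlapped at P6 and P8, and none of the 3 log2 fold changes (0.66, 0.71 and 0.16, with SEs of 0.55, 0.57 and 0.59) was called. Both genotypes were lower at P8 than at P1, by a log2 fold change of −2.01 (SE 0.59) in WT and −2.51 (SE 0.59) in Rack7-cKO. On the scale of CPM per kb of exon, *Ptgds* in WT at P8 was at 0.268, below *Ptgis* at 21.4 and *Ptges* at 20.1. Over the same interval the meningeal and arachnoid sum went up in both genotypes, so *Ptgds* did not follow that list.

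Of the receptors, *Ptgdr*, which encodes the DP receptor for prostaglandin D and raises cAMP, had nearly all of its reads at P6 and P8 in WT. No count was found in either WT library at P1, where Rack7-cKO libraries had 0.952 and 0.404 CPM (56 and 23 counts). WT held 3.76 and 3.96 CPM at P6 and 48.6 and 52.8 CPM at P8. In Rack7-cKO there was no count at P6, and at P8 one library had none and the other 0.166 CPM (14 counts). The groups were apart at each age. Against a floor of 3 counts over the 2 libraries of the group without counts, *Ptgdr* was at least 31.9-fold higher in Rack7-cKO at P1 and at least 167-fold lower at P6. Over the receptor members, *Ptgdr* made up 76.0% and 76.6% of the summed CPM per kb in WT at P8, 29.3% and 28.0% in WT at P6, and 0% and 0.889% in Rack7-cKO at P8. *Ptges*, *Ptgis* and *Ptgdr* had the genotypes in the same order as the meningeal and arachnoid sum at all 3 ages, higher in Rack7-cKO at P1 and lower at P6 and P8, and the part of that list in their levels was not tested.

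*Ptger4*, the EP4 receptor for prostaglandin E, which also raises cAMP, was the receptor that was higher in Rack7-cKO at P8. Its level there was 29.5 and 29.4 CPM, against 14.0 and 14.4 CPM in WT. At P1 it was lower in Rack7-cKO, at 8.06 and 8.71 CPM against 15.6 and 15.5 CPM, and at P6 the values of 14.1 and 9.57 CPM overlapped the WT values of 13.1 and 14.4 CPM. The log2 fold change was −0.89 (SE 0.16) at P1, −0.22 (SE 0.16) at P6 and 1.05 (SE 0.16) at P8. WT stayed within 13.1 to 15.6 CPM over the 3 ages, while Rack7-cKO differed by a log2 fold change of 1.81 (SE 0.16) between P1 and P8. As a share of the receptor members, per kb, *Ptger4* was 69.8% and 75.1% in Rack7-cKO and 10.5% and 10.01% in WT at P8. *Ptger4* overlaps *Ttc33* on the other strand (28.0 CPM on average), and as the sources used here do not say whether counting used strand, their reads cannot be told apart there.

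*Ptger2*, the other cAMP-raising prostaglandin E receptor, was lowest at P6 in both genotypes. It was at 6.61 and 6.42 CPM in WT and 7.65 and 5.20 CPM in Rack7-cKO at P1, and at 6.86 and 6.36 against 7.79 and 4.73 CPM at P8, so that the genotypes overlapped. At P6 all 4 libraries were low, with 1.67 and 1.68 CPM in WT and 1.01 and 0.747 CPM in Rack7-cKO, a log2 fold change of −0.93 (SE 0.29). The call was lost in a fit of the P6 libraries alone and without any 1 of the WT P1, WT P6, Rack7-cKO P6 or WT P8 libraries. For the other ages it was −0.02 (SE 0.26) at P1 and −0.08 (SE 0.26) at P8.

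The last 2 receptor members were scarce. *Ptgfr*, the prostaglandin F receptor, lay between 2.11 and 3.83 CPM in all libraries of P1 and P6. At P8 it stood at 6.68 and 8.42 CPM in WT and 2.33 and 2.89 CPM in Rack7-cKO, a log2 fold change of −1.53 (SE 0.27), with the WT libraries above all others. *Ptger3*, the prostaglandin E receptor that lowers cAMP, was at or under 1.04 CPM everywhere but in WT at P8, where it had 2.25 and 2.40 CPM against 0.423 and 0.404 CPM in Rack7-cKO. That difference, a log2 fold change of −2.49 (SE 1.11), was not called by edgeR but was by DESeq2. The receptors *Ptgdr*, *Ptgfr* and *Ptger3*, which differ in coupling, thus had their highest level in the same group, WT at P8, in which the meningeal and arachnoid sum was also highest. Its part in the levels of *Ptgfr* and *Ptger3* was not tested either.

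**Figure D4:**
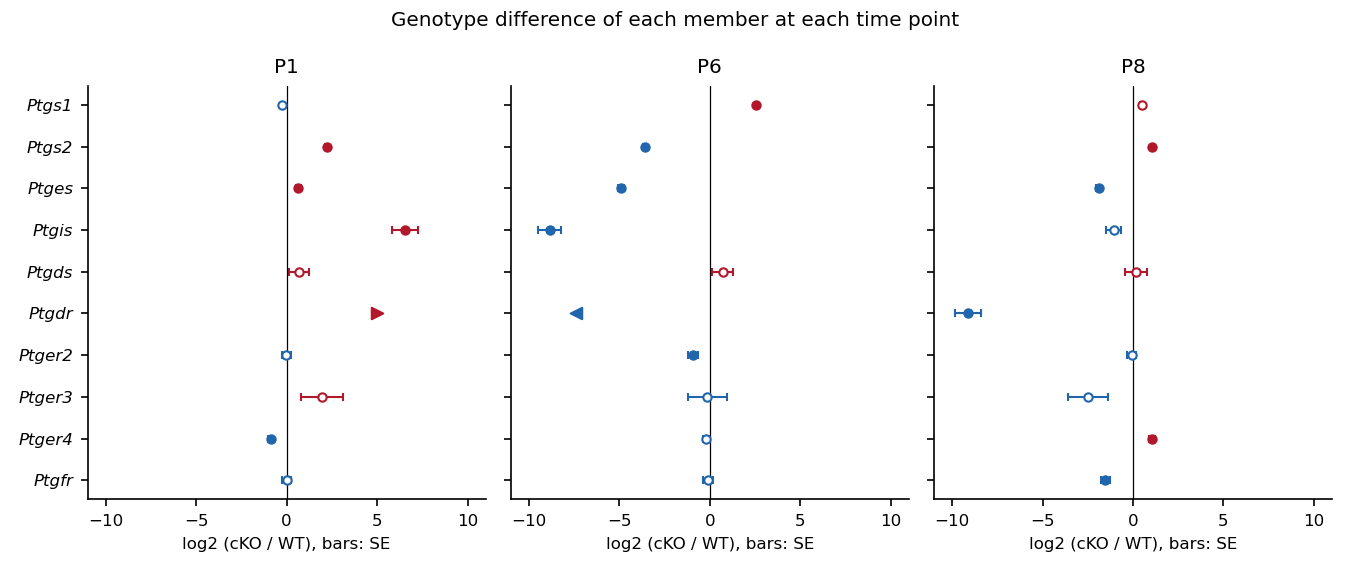
Log2 fold change of Rack7-cKO over WT for each member at P1, P6 and P8, with bars of 1 SE; red is higher and blue lower, filled points passed the call rule, and arrowheads mark *Ptgdr* where one group had no count and the bound is drawn. *Ptgs2*, *Ptges*, *Ptgis* and *Ptgdr* lie to the right at P1 and to the left at P6, while *Ptgs1* does the opposite.

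Time within each genotype gives the same values another way. From P1 to P8 in WT, 6 members were called higher (*Ptgdr*, *Ptger3*, *Ptges*, *Ptgfr*, *Ptgis*, *Ptgs2*) and 2 lower (*Ptgds*, *Ptgs1*), where 14.4% and 15.0% of all genes were called. In Rack7-cKO, 2 were higher (*Ptger4*, *Ptgis*) and 3 lower (*Ptgdr*, *Ptgds*, *Ptgs1*), where 10.3% and 9.97% of all genes were. The change in *Ptges* over that interval was 2.49 (SE 0.15) on the log2 scale in WT and −0.05 (SE 0.14) in Rack7-cKO. For *Ptgs1* it was −1.83 (SE 0.08) and −1.10 (SE 0.07). *Ptgs2* changed by 1.41 (SE 0.09) in WT and 0.24 (SE 0.09) in Rack7-cKO. At P6 the levels of *Ptgs2* in both genotypes, *Ptgs1* in WT and *Ptges* in Rack7-cKO lay outside the range of the other 2 ages. The end points given here thus leave out those excursions.

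The other genes of the pathway were taken from a list of 24 by textbook role, of which 23 were in the table and were tested, and *Ptgdr2* was not analysed here. This list and those below were drawn up with earlier results of these data known, which their p-values do not take into account. At P1, 1 of the 23 rose (*Slco2a1*) and 1 fell (*Hpgd*). At P6, 4 rose (*Pla2g5*, *Pla2g6*, *Ptgfrn*, *Slco2a1*) and 3 fell (*Prxl2b*, *Hpgds*, *Pla2g4a*). At P8, 6 rose (*Abcc4*, *Hpgd*, *Hpgds*, *Pla2g5*, *Slco2a1*, *Tbxas1*) and 0 fell by edgeR, by DESeq2 or at an unadjusted p under 0.05 with the same fold. As a background, the same rule called 4.01% (P1), 7.16% (P6) and 11.2% (P8) of all 17938 genes higher in Rack7-cKO. It called 0.892% (P1), 6.38% (P6) and 8.37% (P8) of them lower. For the P1, P6 and P8 comparisons the list's median log2 fold change was 0.00, −0.24 and 0.21, beside the medians of all genes given above. Both calls at P1 were lost in a fit of the P1 libraries alone.

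Among the genes that take up and break down prostaglandins, *Hpgd*, the dehydrogenase that inactivates them, was scarce at P1 and abundant at P8. WT libraries held 2.05 and 3.07 CPM at P1, 57.5 and 49.3 CPM at P6, and 98.1 and 107 CPM at P8. Those of Rack7-cKO held 1.34 and 1.32, 46.6 and 44.3, and 237 and 217 CPM. *Hpgd* rose with age in both genotypes, by 5.31 (SE 0.18, adjusted p = 1.9e-08) in WT and 7.41 (SE 0.20, adjusted p = 2.4e-08) in Rack7-cKO on the log2 scale. At P8 it was higher in Rack7-cKO by a log2 fold change of 1.15 (SE 0.14, adjusted p = 0.00023). The fall at P1, −0.96 (SE 0.18, adjusted p = 0.011), was lost without either Rack7-cKO P1 library, where the adjusted p was 0.061 and 0.068.

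*Slco2a1*, the prostaglandin uptake carrier, was the single gene of the list that was called at each age. It stood at 11.9 and 13.1 CPM in WT and 21.3 and 18.1 CPM in Rack7-cKO at P1, at 9.58 and 8.09 against 23.0 and 20.1 CPM at P6, and at 5.63 and 6.995 against 18.8 and 18.2 CPM at P8. The genotypes did not overlap at any age. The log2 fold changes were 0.66 (SE 0.14, adjusted p = 0.021), 1.29 (SE 0.15, adjusted p = 0.00019) and 1.55 (SE 0.15, adjusted p = 3.7e-05). Without either WT library at P1 or without Rack7-cKO P1 replicate 1, the P1 call was lost (adjusted p from 0.063 to 0.13). *Abcc4*, an exporter of prostaglandins, was higher in Rack7-cKO at P8, at 29.9 and 28.1 CPM against 19.5 and 18.0 CPM (log2 fold change 0.63, SE 0.07, adjusted p = 0.00015), a fold change that dropped under 1.5 without WT P8 replicate 2.

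**Figure D5:**
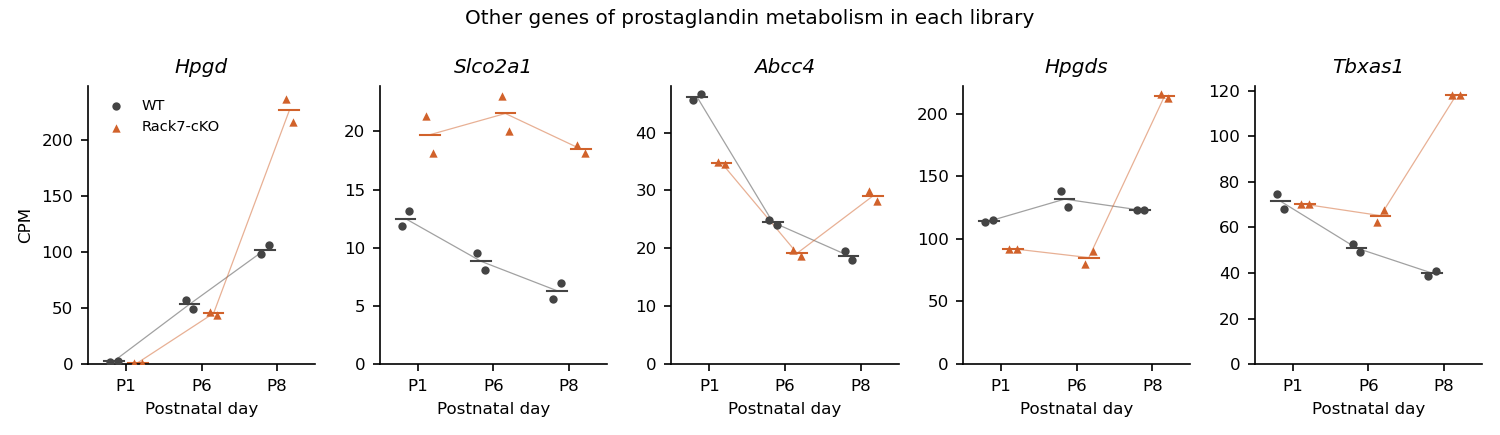
CPM of *Hpgd*, *Slco2a1*, *Abcc4*, *Hpgds* and *Tbxas1* in each library (linear axes from 0, one scale per gene) by postnatal day; circles are WT, triangles Rack7-cKO, bars the mean of 2 libraries. All 5 are higher in Rack7-cKO at P8, and *Slco2a1* is so at each age.

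The synthases known from macrophages and microglia were higher in Rack7-cKO at P8. *Hpgds*, the prostaglandin D synthase of blood cells and microglia, was at 215 and 213 CPM against 123 CPM in each WT library (log2 fold change 0.80, SE 0.07, adjusted p = 1.5e-05). *Tbxas1*, the thromboxane synthase, was at 118 CPM in each Rack7-cKO library against 38.9 and 41.0 CPM in WT (1.56, SE 0.07, adjusted p = 2.7e-07). Microglial markers moved the same way at P8, as given above, and their part in these 2 differences was not tested. At P6 *Hpgds* was lower, at 79.9 and 90.2 CPM in Rack7-cKO against 138 and 125 CPM in WT (−0.63, SE 0.07, adjusted p = 0.00011). *Tbxas1* was higher at P6, at 62.6 and 67.7 CPM against 52.7 and 49.2 CPM (0.35, SE 0.07, adjusted p = 0.0044), under the fold of 1.5. Of the 9 microglial markers, 1 was called lower at P6 and none higher. Their sum was higher in Rack7-cKO at that age, at 2550 to 2587 CPM against 2157 to 2245 CPM. *Tbxas1* overlaps *Hipk2* on the other strand (65.4 CPM on average), and their reads there cannot be told apart. *Prxl2b*, a prostaglandin F synthase that the table lists under its older name *Fam213b*, fell at P6 by 0.62 on the log2 scale (SE 0.13, adjusted p = 0.0072), a call lost in a fit of the P6 libraries alone and without WT P6 replicate 2 or Rack7-cKO P6 replicate 1. *Hpgds* at P6 dropped under the fold of 1.5 without replicate 1 of either genotype at P6.

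Of the phospholipases that free arachidonic acid, *Pla2g4a*, the cytosolic form, was lower in Rack7-cKO at P6, at 43.0 and 46.9 CPM against 70.8 and 72.5 CPM (−0.67, SE 0.07, adjusted p = 9.2e-05). *Pla2g6*, the calcium-independent form, was higher at that age, at 33.4 and 32.4 CPM against 16.9 and 16.5 CPM (0.98, SE 0.16, adjusted p = 0.0017). The secreted form *Pla2g5* was higher at P6 (8.10 and 8.09 against 3.16 and 3.31 CPM, adjusted p = 0.031) and at P8 (2.59 and 2.63 against 1.18 and 0.997 CPM, adjusted p = 0.035). Leaving out any 1 library of P6 took the P6 call of *Pla2g5* away, and leaving out any 1 library of P8, or either Rack7-cKO library of P6, took away that at P8.

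By edgeR on all 12 libraries, 0 of the 3 receptors of the list were called at any age, and 0 had an unadjusted p under 0.05. *Ptgir*, the prostacyclin receptor, was at 4.12 CPM in each WT library and 3.98 and 4.05 CPM in Rack7-cKO at P1, at or under 0.963 CPM in all libraries of P6, and at 2.49 and 3.26 against 4.80 and 5.69 CPM at P8, where it was called by DESeq2 (log2 fold change 0.85, SE 0.35, adjusted p = 0.039) and not by edgeR (adjusted p = 0.14). EdgeR called *Ptgir* higher at P8 in a fit of the P8 libraries alone and without either Rack7-cKO P6 library, and lower at P6 without Rack7-cKO P6 replicate 1. *Tbxa2r*, the thromboxane receptor, was at or under 0.667 CPM in all 12 libraries. *Ptger1* read 7.04 and 0.676 CPM in the WT libraries of P1 and 6.43 and 1.09 CPM in those of Rack7-cKO, so its replicates differed more than its genotypes and its level is uncertain. At P8 it was at 11.97 and 12.95 CPM in WT and 9.003 and 6.69 CPM in Rack7-cKO, and it was called lower there in a fit of the P8 libraries alone. *Ptgfrn*, a negative regulator of the prostaglandin F receptor, rose at P6 (195 and 190 CPM in Rack7-cKO against 118 and 113 CPM in WT, log2 fold change 0.74, SE 0.06, adjusted p = 3e-05).

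The change of the genotype difference between P1 and P8 was tested for the list as an interaction. It passed for 8 of the 23 genes, while 25.7% of all genes tested passed. *Abcc4*, *Akr1b3*, *Hpgd*, *Hpgds*, *Ptgr1*, *Slco2a1* and *Tbxas1* had a larger Rack7-cKO to WT ratio at P8 than at P1, and *Ptgfrn* a smaller one. *Akr1b3*, an aldose reductase with prostaglandin F synthase activity, and *Ptgr1*, a prostaglandin reductase, were called at no single age by the fold rule. From P1 to P8 in WT, *Hpgd* and *Ptgfrn* rose and *Abcc4*, *Pla2g6*, *Slco2a1* and *Tbxas1* fell. In Rack7-cKO, *Hpgd*, *Hpgds*, *Ptgr1* and *Tbxas1* rose and *Pla2g6* and *Ptges2* fell, the last 2 calls being lost without replicate 1 of P1 or replicate 1 of P8. *Tbxas1* thus passed in opposite directions in the 2 genotypes, by −0.84 (SE 0.07, adjusted p = 8e-06) in WT and 0.75 (SE 0.07, adjusted p = 3.2e-05) in Rack7-cKO.

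The leukotriene branch, which uses the same arachidonic acid, had 7 of 11 listed genes in the table, and *Alox12*, *Alox15*, *Alox8* and *Cysltr2* were not analysed here. At P1, 1 fell (*Ltc4s*), at P6, 1 rose (*Alox5*), and at P8, 2 rose (*Alox5ap*, *Cysltr1*) and 1 fell (*Ltb4r2*). The shares of all genes called at each age are those given beside the pathway list. None was called at more than 1 age, and the median log2 fold changes were 0.04, −0.23 and −0.18 at P1, P6 and P8. Without WT P1 replicate 1 or Rack7-cKO P1 replicate 1 the call at P1 was lost, without WT P6 replicate 1 or Rack7-cKO P6 replicate 1 that at P6, and without WT P8 replicate 1 or Rack7-cKO P8 replicate 1 the number higher at P8 was 1. Without WT P8 replicate 2, 2 genes were lower at P8.

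Several prostaglandin receptors act through cAMP, so 11 genes known to be induced by cAMP were examined. At P1, 2 rose (*Nr4a1*, *Sik1*), at P6, 4 fell (*Fosb*, *Nr4a1*, *Nr4a2*, *Nr4a3*), and at P8, 0 were called by edgeR or DESeq2, with 4 at an unadjusted p under 0.05. The list's median log2 fold changes over the 3 ages were 0.27, −0.12 and −0.14, in order of age. For the shares of all genes called, see those beside the pathway list. *Nr4a1*, an immediate-early nuclear receptor, was the single gene called at 2 ages. Its level was 2.75 and 1.89 CPM in WT and 4.79 and 5.21 CPM in Rack7-cKO at P1 (log2 fold change 1.12, SE 0.22, adjusted p = 0.013). At P6 it stood at 184 and 181 CPM in WT and 120 and 77.9 CPM in Rack7-cKO (−0.88, SE 0.19, adjusted p = 0.0088), and at P8 all 4 libraries lay between 8.12 and 9.35 CPM. *Fosb*, likewise an immediate-early gene, was at 229 and 202 CPM in WT and 141 and 108 CPM in Rack7-cKO at P6, and at or under 5.13 CPM in all libraries of P1 and P8. *Ptgs2*, also known as an immediate-early gene, was above its P1 and P8 levels at P6 in WT and below them in Rack7-cKO, whereas *Fosb* and *Nr4a1* were above their P1 and P8 levels at P6 in both genotypes. *Nr4a2* and *Nr4a3* were highest at P6 in WT, but not clearly in Rack7-cKO. There *Nr4a2* at P6 (3.53 and 3.33 CPM) lay below its P8 level (3.70 CPM in each library). *Nr4a3* in Rack7-cKO at P6 (10.1 and 7.27 CPM) overlapped its P1 level (9.45 and 7.85 CPM). The number higher at P1 was 1 without either WT P1 library or Rack7-cKO P1 replicate 1.

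*Ptgdr* and *Ptger2* are neighbours on chromosome 14 (GRCm38), their starts 129 kb apart, with *Ptgdr* at 44851235 to 44859375 on the minus strand and *Ptger2* at 44988195 to 45003820 on the plus strand. While *Ptgdr* ranged from no count to 52.8 CPM, *Ptger2* stayed within 0.747 to 7.79 CPM and overlapped between genotypes at P8. Of 6 further genes of the table that start within 500 kb of *Ptgdr*, 5 were tested (*Gpr137c*, *Txndc16*, *Ero1l*, *Psmc6* and *Styx*). None was called higher at P8, where 11.2% of all genes were called higher and 8.37% lower. *Ero1l* (log2 fold change 0.45, adjusted p = 0.00053), *Gpr137c* (0.50, adjusted p = 0.032) and *Psmc6* (0.15, adjusted p = 0.047) were higher but under the fold of 1.5. Called lower was 1, *Styx*, a pseudophosphatase, with means of 20.6 CPM in WT and 6.49 CPM in Rack7-cKO (log2 fold change −1.66, SE 0.57, adjusted p = 0.049). That call was lost without any 1 of the 4 P8 libraries, and without any 1 of the Rack7-cKO P1 and WT P6 libraries too.

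For members with a wide range, the genes with the most similar log2 CPM over the 12 libraries were found among 15146 candidates. Since the libraries fall into 6 groups, each coefficient is a description of group patterns. Nearest to *Ptgdr* were *Zfp362*, a zinc finger gene (Pearson r = 0.976), *Col18a1*, a basement membrane collagen (0.969), and *Epyc*, a small proteoglycan (0.966). The coefficient does not reflect the size of a change. Group means of *Zfp362* ran only from 44.8 CPM in Rack7-cKO at P6 to 72.7 CPM in WT at P8. *Epyc* had means of 310 CPM in WT at P8 and 0.613 CPM in Rack7-cKO at P8. Nearest to *Ptges* were *Slc7a11*, the cystine carrier (0.979), *Cdh1*, which encodes E-cadherin (0.972), and *Gli1*, a hedgehog target (0.968). For *Ptgis* they were *Tnmd* (0.982), *Adam19* (0.971) and *Prdm6* (0.966). *Tnmd*, known from tendon, had means of 96.6 and 130 CPM in WT at P6 and P8, and 0.140 and 32.9 CPM in Rack7-cKO. *Ptgs2* was matched less well after the first, by *Prl2c2* (0.977), *Esam* (0.880) and *Wnt2* (0.872). *Prl2c2* belongs to a family of near-identical genes whose reads the counting may have split, so its level is uncertain.

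Of the members' gene models, *Ptgdr*, *Ptgs1*, *Ptges*, *Ptgis*, *Ptger2* and *Ptgfr* overlap pseudogenes or other non-coding genes that were not analysed here.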

How the data were processed

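The mRNA of primary astrocytes was sequenced for 2 genotypes at 3 ages, with 2 libraries per group that the labels call biological replicates. P-values measure the spread between such libraries. Per the study's methods and labels, reads were mapped to GRCm38 (mm10) with Hisat2, and the authors deposited raw counts per gene. For the counting program, annotation and strand setting: not given in the sources used here. Gene spans and exon lengths came from an annotation of GRCm38.

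Counts were tested with edgeR 4.0.16 in R 4.3.3 (quasi-likelihood, TMM scaling, filterByExpr, 1 mean per group over the 12 libraries), with Benjamini-Hochberg adjustment over 17938 genes. The call rule was adjusted p under 0.05 with 1.5-fold or more between means; for the interaction it was adjusted p alone. CPM are counts per 1000000 of the TMM-scaled library total. The test was checked on simulated counts. DESeq2 1.42.0, other scalings and filters, single ages, left-out libraries and other thresholds were alternatives, and those for the leukotriene list, the cAMP list and the genes near *Ptgdr* were added after the data were seen.

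The members and the lists were chosen with earlier results of these data known. Named were all members, the genes of the pathway list called at any age and its receptors, leukotriene and cAMP genes called at 2 or more ages, neighbours of *Ptgdr* called at P8, and, for members with a highest group mean of at least 10 CPM and a range of at least 10-fold, the 3 genes of highest correlation. *Fosb*, *Epyc* and *Tnmd* were picked out by their values after they were seen. The same holds for the values shown of *Acta2*, *Dusp1*, *Sik1*, *Nr4a2*, *Nr4a3*, *Ero1l*, *Gpr137c*, *Psmc6* and *Zfp362*.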

Additional observations from a re-analysis of the deposited data

Results flagged for a closer look

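For 8 genes of the pathway list the genotype difference at P8 differed from that at P1, by the interaction test of edgeR. On the log2 scale the change was 2.10 for *Hpgd* (adjusted p = 0.00014), 1.59 for *Tbxas1* (adjusted p = 3.2e-06), 1.11 for *Hpgds* (adjusted p = 2.5e-05), 1.04 for *Abcc4* (adjusted p = 8e-05), 0.89 for *Slco2a1* (adjusted p = 0.011), 0.63 for *Ptgr1* (adjusted p = 0.016), 0.46 for *Akr1b3* (adjusted p = 0.0054) and −0.44 for *Ptgfrn* (adjusted p = 0.0055).

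Among the members, 7 had libraries that lay apart in one direction at one age and in the opposite direction at another. Differences of this kind are descriptions and no test of them is given, because the members were chosen with them known. The log2 fold change at P6 minus that at P1 was −5.80 for *Ptgs2*, −5.56 for *Ptges*, −15.38 for *Ptgis* and 2.83 for *Ptgs1*. At P8 relative to P1 it differed by −2.54 for *Ptges*, −7.60 for *Ptgis*, −4.44 for *Ptger3*, 0.73 for *Ptgs1* and 1.94 for *Ptger4*. For *Ptgs2* the value at P8 minus that at P6 was 4.63. For *Ptgdr*, with groups that had no count set to a floor of 3 counts over the group, the difference between P6 and P1 was −12.38, a bound. That between P8 and P1 was −14.14, which joins the bound at P1 to a fitted fold at P8 and is not one, since the fitted value runs from −14.70 to −8.23 when 1 library is left out.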

How the results depend on the processing

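With DESeq2's size factors in place of TMM scaling, the counts of called members and listed genes stayed within 1.5 times of those reported. The same held with no filter on low counts, except that 0 genes near *Ptgdr* were then lower at P8. A fold change of at least 2 left 0 members lower at P1, 0 pathway genes higher and 0 lower at P1, 2 higher and 0 lower at P6, 0 leukotriene genes higher at P6 and 0 at P8, and 1 cAMP gene higher at P1 and 2 lower at P6. This follows from the stricter rule. With the libraries of one age alone, 5 members were lower at P8, 0 pathway genes were higher and 0 lower at P1, 1 was lower at P8, 0 leukotriene genes were lower at P1 and 0 higher at P6, and 0 cAMP genes were higher at P1 and 1 at P6. With an unadjusted p and the same fold, 2 pathway genes were higher at P1. For leukotriene genes this gave 1 higher at P1, 1 lower at P6 and 2 lower at P8. For cAMP genes it gave 5 higher at P1 and 1 at P8. DESeq2 gave 1 leukotriene gene higher at P1, 1 lower at P6 and 2 lower at P8. For these last settings the cause was not tested.

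Leaving out 1 library at a time, the count of members was 2 to 4 higher and 0 to 1 lower at P1, 1 higher and 4 to 5 lower at P6, and 2 higher and 3 to 4 lower at P8. Pathway genes were 0 to 1 higher and 0 to 1 lower at P1, 3 to 4 and 2 to 3 at P6, 4 to 6 and 0 at P8, and 0 to 3 lower at P8 than P1 in Rack7-cKO. Leukotriene genes were 0 to 1 higher and 0 to 1 lower at P1, 0 to 1 higher at P6, and 1 to 2 higher and 1 to 2 lower at P8. cAMP genes were 1 to 2 higher at P1, 0 to 1 higher at P6 and 0 to 1 higher at P8, and genes near *Ptgdr* 0 to 1 lower at P8.

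The labels number the replicates 1 and 2 in each group. Over all genes tested, deviations of same-numbered libraries correlated by −0.06 to 0.04 only. Such a correlation cannot show whether same-numbered libraries shared a litter or day that touched some genes or 1 age. *Ptger1* at P1, for example, was higher in replicate 1 of both genotypes (7.04 against 0.676 CPM in WT, 6.43 against 1.09 CPM in Rack7-cKO). With the replicate number as a block, 4 members were higher and 1 lower at P1, 1 higher and 5 lower at P6, and 2 higher and 3 lower at P8, and the counts of the lists stayed within 1.5 times of those reported.

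With 2 libraries per group, no spread of a single group is well known. Genes with a few counts, such as *Ptgdr*, *Ptgis* and *Ptger3* in their low groups, have ratios that 1 library sets.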
